A study of Rattus norvegicus with 35 samples.

Results

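The genes described here are 46 interferon-stimulated genes, taken by name from a list of transcription factors, nucleic acid sensors, antiviral effectors, oligoadenylate synthetases, guanylate-binding proteins, antigen-processing genes and other genes that interferon is known to induce. The rule itself uses names and no expression values. All 46 were on the array, among 34766 gene names, and all 46 were among the 24473 genes that passed the filter on low signal and were tested. Their mRNA was measured with 1-colour Agilent arrays in the accessory lobe of the lung of female Sprague Dawley rats, with 1 array for each of 35 rats. The rats were 12 weeks old when dosing began, and received 4 weekly intratracheal instillations of the vehicle Pluronic, of Mitsui-7 or of NM-403, which are both multi-walled carbon nanotubes. Nanotubes were given at 0.25 mg per rat, and the labels do not say whether this is the dose of each instillation or the total. Lungs were taken 3 days after exposure.

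Each treatment was given to wild-type (WT) rats and to genetically modified rats labelled heterozygous for p53, called p53het here. The groups were WT vehicle control, WT Mitsui-7, WT NM-403, p53het vehicle control and p53het Mitsui-7, with 6 rats each, and p53het NM-403, with 5. The labels do not say how the p53 allele was altered. The tissue is a whole lobe, so that fewer cells of a type and less RNA per cell cannot be told apart.

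Interferons are signalling proteins that cells release on sensing viral or misplaced nucleic acid. Type I and type III interferons act through their receptors and the JAK kinases on a complex that contains STAT2 and IRF9 and binds the interferon-stimulated response element, whereas interferon-gamma acts through the GAS element. The genes so induced block viral replication, raise antigen presentation and feed back on the pathway, and in the lung they are known from respiratory infection, where macrophages, epithelium and dendritic cells all respond.

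The response element lies upstream of many of these genes, so promoter sequences are shown first. RefSeq promoters (GRCr8) were found for 36 of the 46 members, and the 250 bases before the annotated start were searched on both strands. Zbp1, Usp18, Isg15, Ifit2, Dhx58, Oas2, Rtp4, Mx2, Adar and Ddx58 were not among the 36. The core of the interferon-stimulated response element, GAAA and GAAA with any 2 bases between them, was present in 23 of 36 members, or 63.9%, against 1140 of 33465 promoters of the same length, or 3.41%. The GAS element, TTCNNNGAA, which reads the same on both strands, was present in 9 of 36 members, or 25%, against 7.67% of all promoters. The motifs can share bases, since both contain GAA. The 9 members with the GAS letters were Irf1, Irf9, Bst2, Ifitm3, Oas1a, Oas1b, Parp14, Psmb8 and Ifi44l. The response-element core occurred 28 times in the 23 members, 18 times on the strand of the gene and 10 times on the other. In 19 of the 23 members a core lay within 100 bases of the start.

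The 6 promoters printed here belong to the members that rose most in WT lungs with Mitsui-7 among those with an entry. Zbp1, Usp18 and Isg15 rose too but have no entry. Each run is the 250 bases before the start, read 5′ to 3′ on the strand of the gene, with the response-element core in capitals where it occurs. Their positions are Ifit3 chr1:241527076-241527325 on the plus strand, Oasl chr12:47356293-47356542 on the minus strand, Mx1 chr11:50294607-50294856 on the minus strand, Irf7 chr1:205800024-205800273 on the minus strand, Lgals3bp chr10:104127849-104128098 on the minus strand and Gbp4 chr2:233978236-233978485 on the plus strand. A core on the opposite strand appears as TTTC and TTTC with 2 bases between them.
Ifit3: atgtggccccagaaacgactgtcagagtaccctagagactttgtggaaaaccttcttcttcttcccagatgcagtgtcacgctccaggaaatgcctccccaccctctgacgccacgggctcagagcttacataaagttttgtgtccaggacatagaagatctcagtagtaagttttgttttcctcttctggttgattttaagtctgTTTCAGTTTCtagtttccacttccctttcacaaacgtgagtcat
Oasl: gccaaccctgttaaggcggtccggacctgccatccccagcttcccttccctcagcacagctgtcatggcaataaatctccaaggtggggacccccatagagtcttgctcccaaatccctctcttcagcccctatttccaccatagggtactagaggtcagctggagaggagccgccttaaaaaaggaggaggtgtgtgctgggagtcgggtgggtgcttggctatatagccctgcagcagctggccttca
Mx1: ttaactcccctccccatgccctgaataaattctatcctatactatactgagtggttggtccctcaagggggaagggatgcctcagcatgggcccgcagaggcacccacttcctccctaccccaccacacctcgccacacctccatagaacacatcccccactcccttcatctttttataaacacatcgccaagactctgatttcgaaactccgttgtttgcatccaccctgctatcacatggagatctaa
Irf7: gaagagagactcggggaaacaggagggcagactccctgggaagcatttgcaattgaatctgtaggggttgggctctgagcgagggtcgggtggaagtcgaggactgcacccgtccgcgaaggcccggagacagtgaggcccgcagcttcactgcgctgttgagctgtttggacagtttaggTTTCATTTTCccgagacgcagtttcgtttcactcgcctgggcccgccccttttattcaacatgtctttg
Lgals3bp: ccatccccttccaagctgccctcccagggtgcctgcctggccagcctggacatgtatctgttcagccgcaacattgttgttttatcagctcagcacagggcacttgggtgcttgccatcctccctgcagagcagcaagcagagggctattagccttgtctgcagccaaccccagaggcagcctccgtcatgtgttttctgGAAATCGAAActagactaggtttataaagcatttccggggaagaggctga
Gbp4: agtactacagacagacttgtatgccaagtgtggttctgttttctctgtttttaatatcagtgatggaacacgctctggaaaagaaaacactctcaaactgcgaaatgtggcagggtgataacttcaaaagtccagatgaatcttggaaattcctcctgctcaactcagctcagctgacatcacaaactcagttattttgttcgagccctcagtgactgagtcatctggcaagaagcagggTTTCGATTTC
Ifit3, Irf7, Lgals3bp and Gbp4 each held 1 core. In the Oasl and Mx1 runs neither motif occurred in these letters.

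The 30 bases around the core are set side by side here to compare the core and its flanks between members that rose with Mitsui-7 in WT lungs and members that did not pass the test. Each window is read on the strand that carries the GAAA form, with the core in capitals. The first 8 windows are those of every member that rose and had a core, and the last 4 are those with the lowest estimated difference among the members not called that had a core. The windows lie in GRCr8, with Irf7 at chr1:205800073-205800102, Ifit3 at chr1:241527272-241527301, Rsad2 at chr6:48788248-48788277, Eif2ak2 at chr6:21941128-21941157, Oasl2 at chr12:47383317-47383346, Gbp4 at chr2:233978466-233978495, Tap1 at chr20:4668645-4668674, Lgals3bp at chr10:104127879-104127908, Bst2 at chr16:18255079-18255108, Ifitm3 at chr1:205541783-205541812, Oas1b at chr12:41395892-41395921 and Nmi at chr3:56848624-56848653.
Irf7: tgcgtctcggGAAAATGAAAcctaaactgt
Ifit3: gtggaaactaGAAACTGAAAcagacttaaa
Rsad2: tctgttttctGAAAATGAAAgttgaaccag
Eif2ak2: agtccgccggGAAAACGAAAcagagagaac
Oasl2: ctcaagcctgGAAACTGAAAccaaagcttt
Gbp4: aaagggaaccGAAATCGAAAccctgcttct
Tap1: agaggaagaaGAAACCGAAAgcagccaccg
Lgals3bp: gtgttttctgGAAATCGAAActagactagg
Bst2: ccctttccagGAAAATGAAActgaaaggtg
Ifitm3: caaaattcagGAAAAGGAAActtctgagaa
Oas1b: cccttcccggGAAATGGAAActgaaaaccc
Nmi: tgaaataaacGAAAGTGAAAgaacggcctg
The core GAAACTGAAA was the most frequent, in 7 members. Bst2 and Oas1b each held a second core that overlaps the one printed. The core of Gbp4 ends 1 base before its start, and that of Eif2ak2 7 bases before. Among the members with a promoter entry, 8 of the 11 that rose with Mitsui-7 in WT lungs had a core, or 72.7%, and 15 of the 25 that were not called, or 60.0%. The GAS letters were in 0 of the 11 and in 9 of the 25, or 36.0%. These shares were not tested. A match is a stretch of letters and not a measured binding site.

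**Figure D1:**
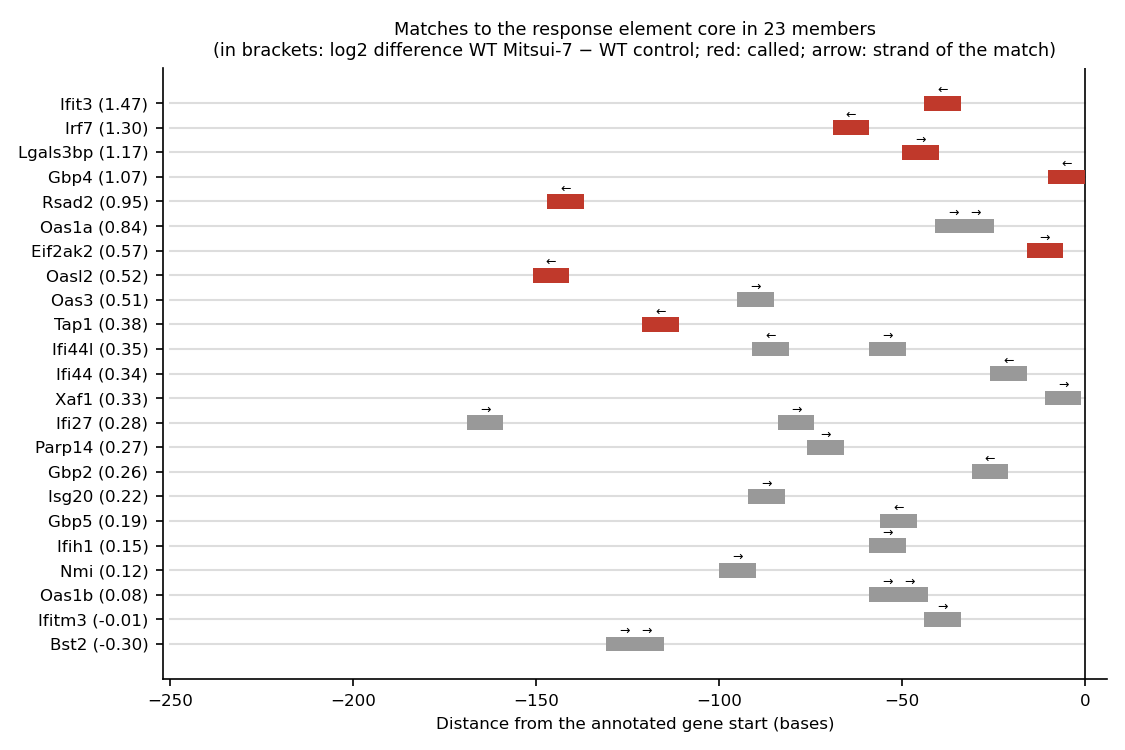
Positions of the response-element core in the 23 members that hold it, in bases from the annotated start (horizontal), 1 line per member, ordered by the log2 difference between WT Mitsui-7 and WT control rats given in brackets. Red bars are members called in that comparison, arrows give the strand, and in 19 of the 23 members a core lies within 100 bases of the start.

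The values below are log2 levels, that is log2 of the scanner's processed signal minus the 75th percentile of that array, and a difference of 1 is a doubling. Differences are given with limma's standard error after ±, and a gene was called, and is said to have risen or fallen, at a Benjamini-Hochberg adjusted p under 0.05 over all genes tested. Levels are compared between groups and never between genes, because probes differ in brightness. All 8 lung epithelium markers were tested, with a summed level between 8.12 and 8.77 (log2). Between 66.1% and 86.4% of spots were well above background on an array. WT Mitsui-7 replicate 5 had the highest share and WT NM-403 replicate 6 the lowest, with the other arrays between 68.5% and 74.6%. Of the members, 43 of 46 were well above background on all 35 arrays, and Oasl, Gbp4 and Oas3 were so on 34, 32 and 24.

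In WT lungs, Mitsui-7 raised 18 of the 46 members and lowered 0. Of all genes tested, 14.0% were called, with 8.41% of all genes higher and 5.56% lower. The members that rose include Irf7, the factor that amplifies interferon production, the nucleic acid sensor Zbp1, the ubiquitin-like modifier Isg15 and the protease Usp18 that removes it, and the antiviral effectors Mx1, Ifit3, Ifit2 and Rsad2. The rises ran from 1.30-fold for Tap1 to 3.57-fold for Zbp1. The estimate was above 0 in 40 of 46 members, and the median log2 difference was 0.35 over the members and 0.03 over all genes tested. In 13 members every WT Mitsui-7 rat was above every WT control rat, which held for 4.52% of all genes. At an unadjusted p under 0.05, 28 members were higher and 1 was lower, against 15.4% and 11.8% of all genes.

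Of the 5 transcription factors, Irf7 rose. Its log2 level ran from -0.20 to 0.68 in WT controls (median 0.37) and from 1.10 to 2.18 with Mitsui-7 (median 1.60), with no overlap. The difference was 1.30 ± 0.24, or 2.46-fold, with an adjusted p of 0.000223 by limma. Irf1, which acts early after interferon-gamma, had a difference of -0.05 ± 0.12 (adjusted p = 0.856 by limma). Irf9 and Stat2, parts of the complex that binds the response element, had differences of 0.20 and 0.23, and Nmi, which binds STAT proteins, one of 0.12. Those 4 did not pass the test.

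Of the 4 sensors, Zbp1 and Dhx58 rose. Zbp1, which recognises Z-form nucleic acid and can start cell death, ran from -5.66 to -4.67 in WT controls (median -4.99) and from -3.65 to -2.84 with Mitsui-7 (median -3.31). The groups did not overlap, and the difference was 1.84 ± 0.30, or 3.57-fold (adjusted p = 4.23e-05 by limma), the largest fold among the members. Dhx58, a regulator of the RIG-I-like receptors, rose by 0.73 ± 0.14 (adjusted p = 0.000552 by limma), again with no overlap. The RNA sensors Ddx58 (RIG-I) and Ifih1 (MDA5) had differences of 0.20 and 0.15 and were not called.

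In the ISG15 system, the modifier and its protease moved together. Isg15 ran from -0.52 to 0.41 in WT controls (median -0.05) and from 0.64 to 1.44 with Mitsui-7 (median 1.10), a difference of 1.11 ± 0.21, or 2.16-fold (adjusted p = 0.000386 by limma). Usp18, which also dampens signalling at the type I receptor, ran from -3.00 to -2.30 (median -2.52) and from -1.69 to -0.92 (median -1.07), a difference of 1.32 ± 0.20, or 2.49-fold (adjusted p = 1.28e-05 by limma). For both genes every Mitsui-7 rat was above every control. The ubiquitin ligases Herc6 and Trim25 had differences of 0.16 and -0.03 and were not called.

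Of the 11 antiviral effectors, 6 rose, which were Ifit3, Mx1, Rsad2, Ifit2, Eif2ak2 and Cmpk2. Ifit3, of the family that binds viral RNA, ran from -4.23 to -3.30 in WT controls (median -3.48) and from -2.46 to -1.80 with Mitsui-7 (median -2.10), a difference of 1.47 ± 0.27, or 2.76-fold (adjusted p = 0.00019 by limma). Mx1, a GTPase that traps viral nucleocapsids, ran from 0.10 to 1.03 (median 0.72) and from 1.43 to 2.47 (median 2.04), a difference of 1.30 ± 0.19, or 2.47-fold (adjusted p = 1.2e-05 by limma). Neither gene's groups overlapped. Rsad2 (viperin) and Cmpk2, which are adjacent genes, rose by 0.95 and 0.48, and Ifit2, the neighbour of Ifit3, by 0.88. Eif2ak2, the kinase PKR that halts translation, rose by 0.57 ± 0.12 (adjusted p = 0.00103 by limma). The other 5 were not called. Mx2 had a difference of 0.39, Isg20, an RNA exonuclease, one of 0.22, Ifitm3, which blocks viral entry, one of -0.01, and Adar, which edits double-stranded RNA, one of -0.11. Bst2 (tetherin), which holds virions at the cell surface, had the lowest difference of all members, -0.30 ± 0.12 (adjusted p = 0.0972 by limma).

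Second probes of some members differed from the one used. The other Mx2 probe was well above background on 20 of 35 arrays and gave log2 differences of 0.70 with Mitsui-7 in WT and 2.00 in p53het lungs, against 0.39 and 0.14 for the probe used. With NM-403 in p53het lungs it gave 2.08 against -0.18, so the 2 Mx2 probes disagree. The other Rsad2 probe, above background on 12 arrays, gave 1.49 in WT and -0.30 in p53het lungs with Mitsui-7, against 0.95 and 0.38 for the probe used, so the sign in p53het lungs differs between them. The other Gbp4 probe, above background on 1 array, gave 0.29 and -0.25 against 1.07 and 0.03. Some other probes above background on all 35 arrays also changed sign in WT lungs with Mitsui-7. That of Trim25 gave 0.23 against -0.03, and that of Ifitm3 0.01 against -0.01. The 2 other Adar probes gave 0.05 and 0.06 against -0.11.

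**Figure D2:**
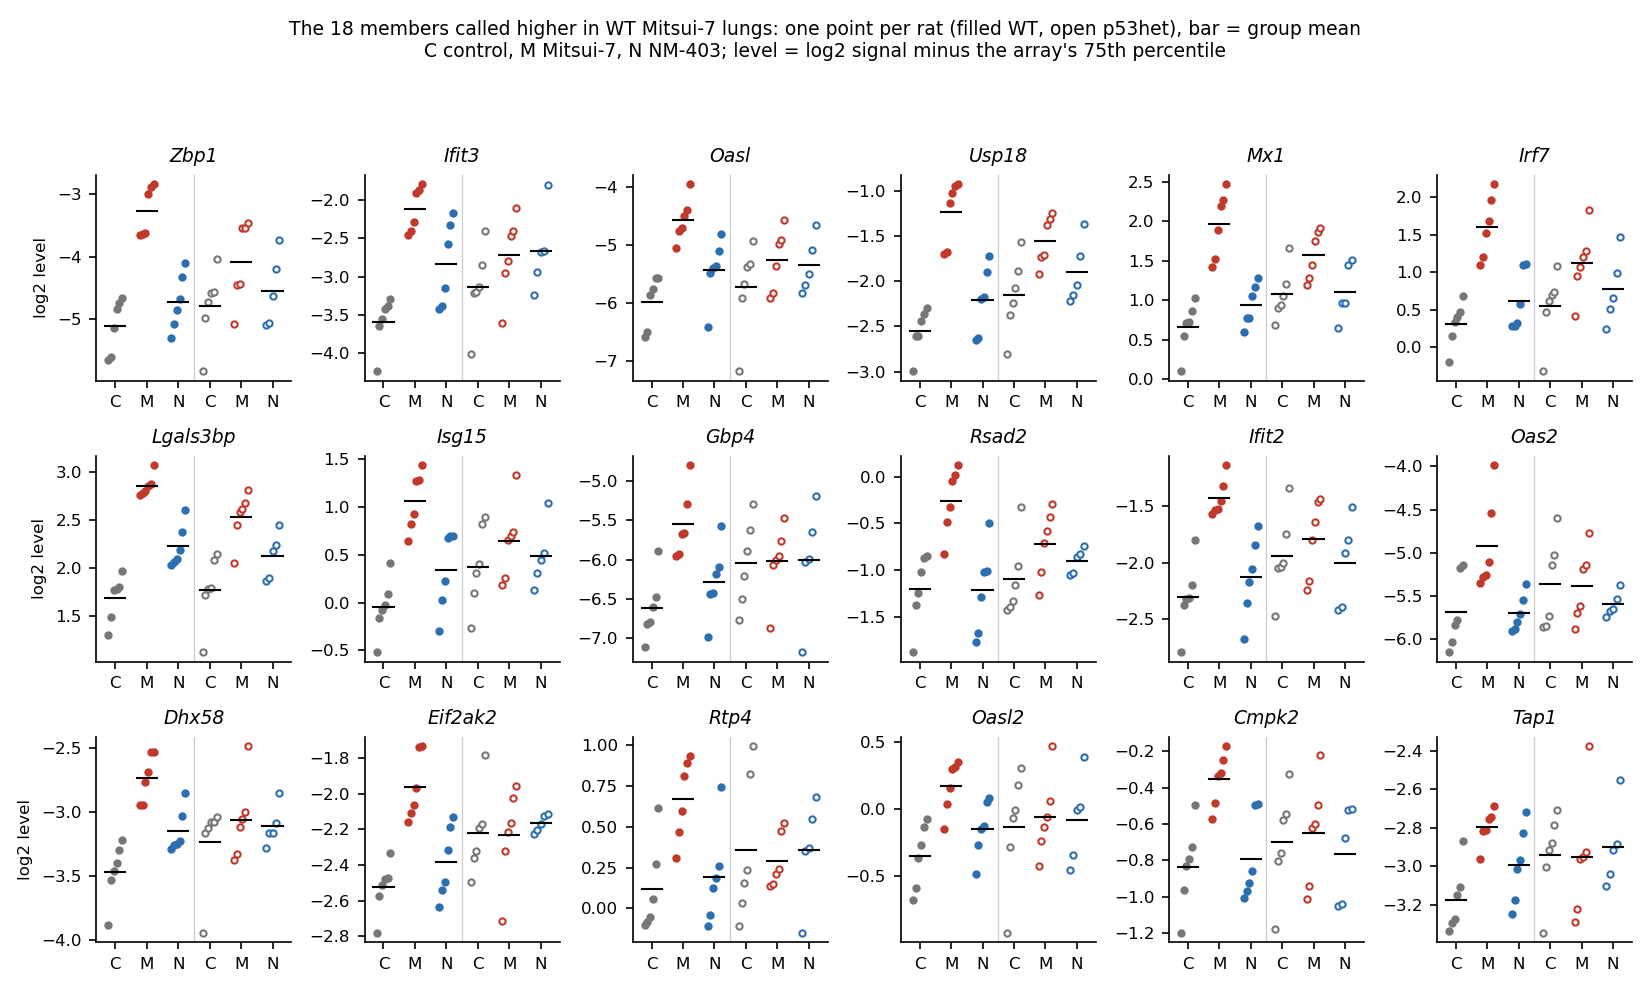
Log2 level relative to the array's 75th percentile of the 18 members that rose in WT lungs with Mitsui-7, 1 point per rat (filled WT, open p53het) in control (C), Mitsui-7 (M) and NM-403 (N) groups, with a bar at the group mean. The WT Mitsui-7 rats stand above the WT controls for Zbp1, Usp18, Mx1 and Lgals3bp with no overlap, and for the same 4 genes the p53het Mitsui-7 rats overlap their controls.

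Of the 6 members of the oligoadenylate synthetase family, Oasl, Oas2 and Oasl2 rose. The active enzymes of the family make a product that activates RNase L, which Oasl does not. Oasl ran from -6.59 to -5.57 in WT controls (median -5.81) and from -5.05 to -3.96 with Mitsui-7 (median -4.61), with no overlap. The difference was 1.41 ± 0.30, or 2.66-fold (adjusted p = 0.00145 by limma). Oas2 rose by 0.76 ± 0.23 (adjusted p = 0.0257 by limma), with 3 of 6 treated rats above every control, and Oasl2 by 0.52 ± 0.17 (adjusted p = 0.0378 by limma). Oas1a had separate groups, from -1.94 to -0.47 in controls (median -0.86) and from -0.43 to 0.25 with Mitsui-7 (median -0.29), yet its difference of 0.84 ± 0.34 was not called (adjusted p = 0.0977 by limma). Oas1b and Oas3 had differences of 0.08 and 0.51 and were not called either.

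Gbp4 was the 1 member of 3 guanylate-binding proteins, GTPases that attack microbe-containing vacuoles, that rose. It ran from -7.12 to -5.90 in WT controls (median -6.71) and from -5.95 to -4.79 with Mitsui-7 (median -5.66), and 4 of 6 treated rats were above every control. The difference was 1.07 ± 0.29, or 2.10-fold (adjusted p = 0.0115 by limma), and it is a dim probe. Gbp2 and Gbp5 had differences of 0.26 and 0.19. Tap1, which carries peptides into the endoplasmic reticulum, rose by 0.38 ± 0.13 (adjusted p = 0.0424 by limma). The immunoproteasome subunits Psmb8 and Psmb9, its neighbours on the chromosome, had differences of 0.24 and 0.26 and were not called. Parp9, Dtx3l and Parp14, neighbouring genes of ADP-ribosylation and ubiquitination, had differences of 0.47, 0.35 and 0.27, and none of the 3 passed the test.

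Of the 7 remaining members, Lgals3bp and Rtp4 rose. Lgals3bp, a secreted glycoprotein that binds galectin-3, ran from 1.31 to 1.97 in WT controls (median 1.78) and from 2.76 to 3.07 with Mitsui-7 (median 2.83). The groups did not overlap, and the difference was 1.17 ± 0.15, or 2.25-fold (adjusted p = 6.45e-07 by limma), the smallest p of the members. Rtp4, a chaperone of membrane receptors, rose by 0.55 ± 0.17 (adjusted p = 0.0318 by limma), with 3 of 6 treated rats above every control. Ifi44, Ifi44l, Ifi27 and Xaf1 had differences of 0.34, 0.35, 0.28 and 0.33 and Ifi35 one of -0.15, none of them called.

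The levels behind the smaller rises in WT lungs were closer together. Rsad2 ran from -1.88 to -0.85 (median -1.13) in WT controls and from -0.83 to 0.12 (median -0.19) with Mitsui-7. Ifit2 ran from -2.80 to -1.80 (median -2.32) in WT controls and from -1.57 to -1.13 (median -1.49) with Mitsui-7. Eif2ak2 ran from -2.78 to -2.33 (median -2.50) in WT controls and from -2.16 to -1.73 (median -2.01) with Mitsui-7. These 3 and Dhx58 had no overlap. Dhx58 ran from -3.88 to -3.22 (median -3.43) in WT controls and from -2.95 to -2.53 (median -2.72) with Mitsui-7. Cmpk2 ran from -1.20 to -0.50 (median -0.81) in WT controls and from -0.57 to -0.17 (median -0.33) with Mitsui-7. Oasl2 ran from -0.68 to -0.07 (median -0.31) in WT controls and from -0.15 to 0.35 (median 0.23) with Mitsui-7. For Cmpk2 and Oasl2, 5 of 6 Mitsui-7 rats were above every control. Oas2 ran from -6.15 to -5.14 (median -5.80) in WT controls and from -5.35 to -3.98 (median -5.18) with Mitsui-7. Tap1 ran from -3.34 to -2.87 (median -3.21) in WT controls and from -2.96 to -2.69 (median -2.78) with Mitsui-7. Rtp4 ran from -0.10 to 0.62 (median 0.00) in WT controls and from 0.31 to 0.93 (median 0.71) with Mitsui-7. For Tap1, 5 of 6 Mitsui-7 rats were above every control, and for Oas2 and Rtp4, 3 of 6.

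The array slide, which the file headers give, held several groups. Slide 1, scanned on a day of its own, held arrays of every group but WT Mitsui-7. Slide 2 held every group but p53het NM-403. With the slide as a fixed block, 24 members were higher and 1, Bst2, was lower, and with the slide as a random block 25 and 1, all 18 among them. The share of all genes called with the slide as a block is not reported here, so these counts are not set against it. On the 4 slides that held both WT groups, the median difference over the members was 0.13, 0.36, 0.36 and 0.46. Called genes as a whole split differently under other scalings. Of all genes called, 60.2% were higher as scaled here, and 43.2% to 44.5% under median, quantile or normexp scaling, where 14 to 16 members were higher and 1 was lower, again Bst2. On the authors' values, which measure 35 members, 36.9% of the genes called were higher, with 11 members higher and 0 lower. Quantile scaling moved the median of all genes from 0.03 to -0.07.

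**Figure D3:**
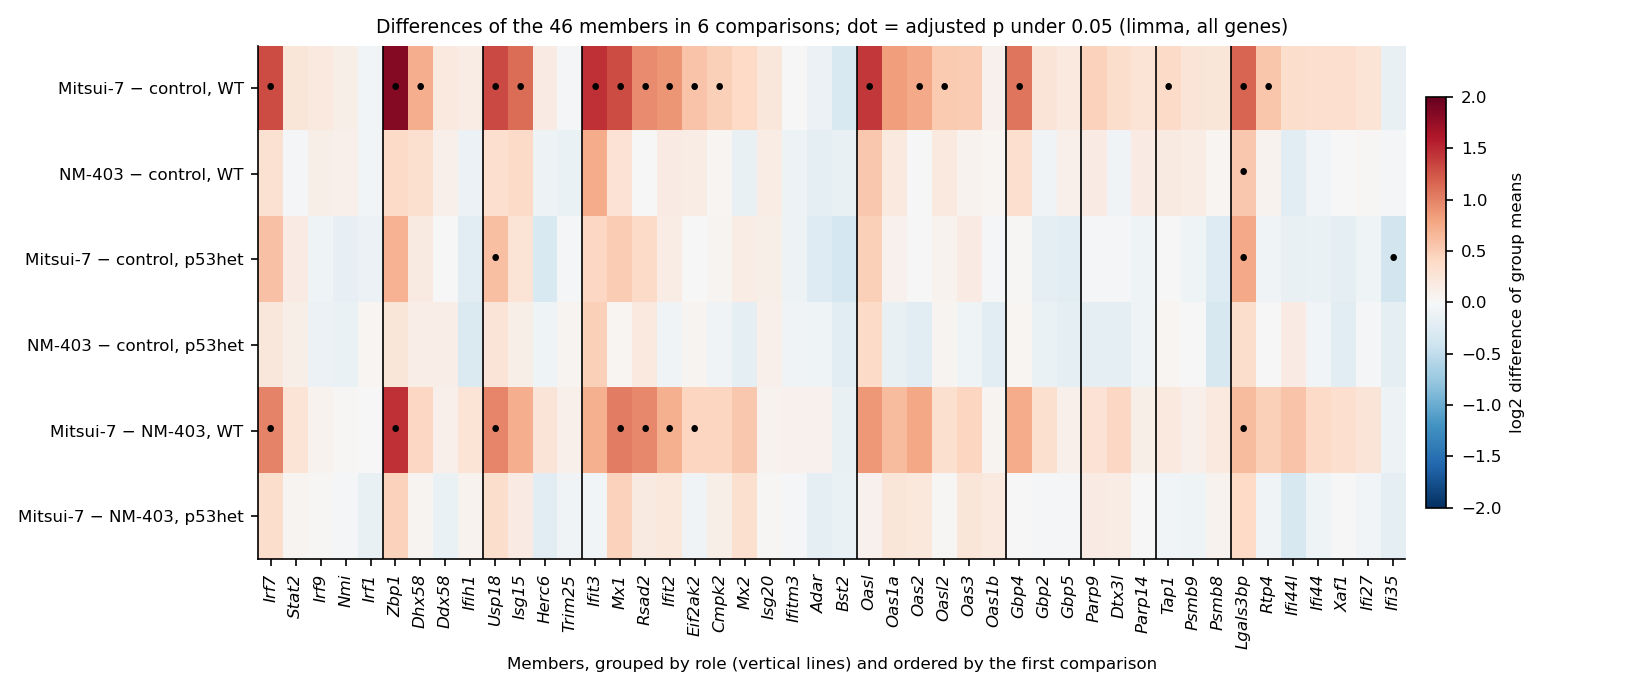
Log2 difference of group means (colour) of each of the 46 members (columns, grouped by role) in 6 comparisons (lines), with a dot at an adjusted p under 0.05 by limma over all genes. The line of WT Mitsui-7 against control has 18 dots, and its darkest cell is Zbp1 at 1.84.

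NM-403 in WT lungs raised 1 of 46 members, Lgals3bp, where 3.20% of all genes were called, 2.30% higher. Its level ran from 2.03 to 2.60 (median 2.14), above every WT control, and the difference was 0.54 ± 0.15, or 1.45-fold (adjusted p = 0.0328 by limma). This call was lost when any 1 of WT control replicates 3 and 6 or WT NM-403 replicates 1, 2 and 6 was left out. Ifit3 had a difference of 0.75 and Oasl one of 0.55, neither called, and Irf7 one of 0.30. With the array slide as a fixed block Ifit3 was called too, at 0.80 (adjusted p = 0.0195 by limma), and as a random block at 0.79 (adjusted p = 0.0203 by limma). The median over the members was 0.08, and 0.03 without WT control replicate 3 or WT NM-403 replicate 1, and 3 members were higher at an unadjusted p under 0.05, as were 6.85% of all genes. This comparison shares its controls with that of Mitsui-7.

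The other members that rose with Mitsui-7 overlapped between WT NM-403 rats and WT controls. Irf7 ran from 0.29 to 1.11 (median 0.45) with NM-403. Isg15 ran from -0.30 to 0.70 (median 0.45) with NM-403. Ifit3 ran from -3.43 to -2.17 (median -2.87) with NM-403. Of 6 NM-403 rats, 2 were above every control for Irf7, 3 for Isg15 and 4 for Ifit3. Oasl ran from -6.41 to -4.82 (median -5.38) with NM-403. Gbp4 ran from -6.99 to -5.57 (median -6.31) with NM-403. Dhx58 ran from -3.29 to -2.85 (median -3.24) with NM-403. Of these, Oasl came nearest to separation, with 5 of 6 above every control. Rsad2 ran from -1.77 to -0.50 (median -1.16) with NM-403. Ifit2 ran from -2.68 to -1.68 (median -2.11) with NM-403. Cmpk2 ran from -1.01 to -0.49 (median -0.89) with NM-403. For each of these 3 genes, 1 of 6 was above every control. Eif2ak2 ran from -2.64 to -2.13 (median -2.41) with NM-403. Oasl2 ran from -0.48 to 0.09 (median -0.14) with NM-403. Oas2 ran from -5.90 to -5.36 (median -5.75) with NM-403. For Oas2, 0 of 6 were above every control, and for Eif2ak2 3. Tap1 ran from -3.25 to -2.72 (median -2.99) with NM-403. Rtp4 ran from -0.11 to 0.74 (median 0.15) with NM-403. Ifi35 ran from -1.42 to -0.92 (median -1.28) with NM-403. Ifi35 had no NM-403 rat above every control.

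The nanotubes were given at the same labelled dose and time, and WT Mitsui-7 rats were set against WT NM-403 rats directly. With Mitsui-7, 8 of 46 members were higher and 0 lower, where 3.32% of all genes were called, 2.77% higher. They were Zbp1 (2.74-fold, adjusted p = 0.00259), Mx1 (2.03-fold, 0.00106), Irf7 (1.99-fold, 0.012), Usp18 (1.97-fold, 0.00208), Rsad2 (1.94-fold, 0.00646), Ifit2 (1.63-fold, 0.0289), Lgals3bp (1.55-fold, 0.0087) and Eif2ak2 (1.34-fold, 0.0384), all by limma. For Zbp1 the NM-403 rats ran from -5.30 to -4.10 (median -4.77), for Usp18 from -2.64 to -1.71 (median -2.19) and for Mx1 from 0.60 to 1.28 (median 0.92), all below every Mitsui-7 rat. The estimate was above 0 in 43 of 46 members, with a median of 0.33, and 24 were higher at an unadjusted p under 0.05, as were 9.99% of all genes. Groups did not overlap in 7 members, as in 1.92% of all genes. Of all genes called, 83.4% were higher as scaled here and 62.9% to 73.6% under the other scalings and the authors' values, where 6 or 7 members were called, all higher. Over 47 other settings the Eif2ak2 call was lost in 13, among them median, quantile and normexp scaling and the authors' values. Ifit2 was lost in 8 and Rsad2 in 1, while the others were kept in every setting that tested them, which was 46 for Zbp1. The Mitsui-7 rats are those of the comparison with controls.

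In p53het lungs, Mitsui-7 raised 2 members and lowered 1, where 11.6% of all genes were called, 5.29% higher and 6.28% lower. Lgals3bp ran from 1.12 to 2.14 in p53het controls (median 1.78) and from 2.05 to 2.81 with Mitsui-7 (median 2.60), with 5 of 6 treated rats above every control. The difference was 0.76 ± 0.15, or 1.69-fold (adjusted p = 0.000571 by limma). Usp18 ran from -2.81 to -1.56 (median -2.15) and from -1.92 to -1.25 (median -1.54), a difference of 0.61 ± 0.20, or 1.52-fold (adjusted p = 0.0401 by limma), with 3 of 6 above every control. Ifi35, a partner of Nmi, fell by 0.37 ± 0.12 on the log2 scale (adjusted p = 0.0348 by limma), from a median of -0.85 to one of -1.19. The Ifi35 call was lost in 10 of 47 other settings, among them median, quantile and normexp scaling and the authors' values. The Usp18 call was lost in 10 as well, and that of Lgals3bp in 0. Leaving out p53het control replicate 6 or p53het Mitsui-7 replicate 4 or 5 left 1 call, and leaving out p53het Mitsui-7 replicate 3 gave 5.

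The members with the largest differences in WT lungs had smaller estimates in p53het lungs, but they were chosen on their WT estimate. A smaller estimate in other rats is likely after such a choice, so it is not by itself a genotype difference. Zbp1 ran from -5.83 to -4.04 in p53het controls (median -4.65) and from -5.07 to -3.46 with Mitsui-7 (median -3.99), a difference of 0.70 ± 0.30 (adjusted p = 0.128 by limma). Mx1 ran from 0.69 to 1.66 (median 0.99) and from 1.19 to 1.92 (median 1.60), a difference of 0.50 ± 0.19 (adjusted p = 0.0897 by limma). Both overlapped between the groups. Irf7, Ifit3, Oasl and Isg15 had differences of 0.58, 0.41, 0.47 and 0.27, and Gbp4 one of 0.03, none called. Bst2 had a difference of -0.35 ± 0.12 (adjusted p = 0.0576 by limma). The median over the members was -0.02, with 19 of 46 above 0, and at an unadjusted p under 0.05, 5 members were higher and 2 lower, against 10.5% and 14.3% of all genes. With the slide as a fixed block, 2 members were higher and 4 lower, and within the 5 slides the median over the members ran from -0.28 to 0.43. For this block too the share of all genes called is not reported here. Of all genes called, 45.7% were higher as scaled here, 55.3% under median scaling, with 2 members higher and 0 lower, and 52.8% on the authors' values, with 3 and 0. The member median changed sign when 1 array was left out, with a range of -0.10 to 0.03 from p53het control replicates 6 and 1.

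Levels of the other members that rose in WT lungs overlapped between p53het Mitsui-7 rats and p53het controls. Irf7 ran from -0.32 to 1.08 (median 0.65) in p53het controls and from 0.42 to 1.83 (median 1.14) with Mitsui-7. Isg15 ran from -0.27 to 0.89 (median 0.35) in p53het controls and from 0.18 to 1.34 (median 0.68) with Mitsui-7. Ifit3 ran from -4.01 to -2.41 (median -3.17) in p53het controls and from -3.61 to -2.11 (median -2.63) with Mitsui-7. Of 6 Mitsui-7 rats, 3 were above every control for Irf7, 1 for Isg15 and 2 for Ifit3. Oasl ran from -7.18 to -4.94 (median -5.53) in p53het controls and from -5.92 to -4.57 (median -5.18) with Mitsui-7. Rsad2 ran from -1.42 to -0.32 (median -1.24) in p53het controls and from -1.27 to -0.30 (median -0.65) with Mitsui-7. Ifit2 ran from -2.48 to -1.34 (median -2.02) in p53het controls and from -2.24 to -1.43 (median -1.72) with Mitsui-7. For Ifit2 no treated rat was above every control. Gbp4 ran from -6.78 to -5.29 (median -6.05) in p53het controls and from -6.87 to -5.46 (median -5.98) with Mitsui-7. Oas2 ran from -5.85 to -4.60 (median -5.44) in p53het controls and from -5.88 to -4.77 (median -5.40) with Mitsui-7. Eif2ak2 ran from -2.50 to -1.78 (median -2.26) in p53het controls and from -2.71 to -1.96 (median -2.19) with Mitsui-7. For each of these 3, 1 treated rat was below every control. Dhx58 ran from -3.94 to -3.04 (median -3.10) in p53het controls and from -3.38 to -2.48 (median -3.09) with Mitsui-7. Cmpk2 ran from -1.18 to -0.32 (median -0.67) in p53het controls and from -1.01 to -0.22 (median -0.61) with Mitsui-7. Oasl2 ran from -0.92 to 0.31 (median -0.04) in p53het controls and from -0.42 to 0.47 (median -0.10) with Mitsui-7. Of 6 Mitsui-7 rats, 2 were above every control for Dhx58 and 1 for each of Cmpk2 and Oasl2. Tap1 ran from -3.35 to -2.71 (median -2.90) in p53het controls and from -3.29 to -2.37 (median -2.96) with Mitsui-7. Rtp4 ran from -0.11 to 1.00 (median 0.20) in p53het controls and from 0.14 to 0.52 (median 0.22) with Mitsui-7. Ifi35 ran from -1.03 to -0.67 (median -0.85) in p53het controls and from -1.49 to -0.97 (median -1.19) with Mitsui-7. For Ifi35, the member called lower as scaled here, 5 of 6 treated rats were below every control. In WT rats Ifi35 ran from -1.52 to -0.86 (median -1.10) in controls and from -1.53 to -1.14 (median -1.29) with Mitsui-7.

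NM-403 in p53het lungs gave 0 members called by limma, where 1.52% of all genes were called, and 1 member had an unadjusted p under 0.05, as did 12.0% of all genes. With array weights 1 member, Ifih1, was called, lower by limma at a difference of -0.48. The 5 Lgals3bp levels were 2.24, 1.87, 2.45, 2.18 and 1.90, and the 5 Mx1 levels 1.45, 0.97, 1.51, 0.97 and 0.65. Both sets overlapped those of p53het controls. The median over the members was -0.05, with a range of -0.07 to 0.01 when 1 array was left out. Between p53het Mitsui-7 and p53het NM-403 rats limma called 0 members, where 1.36% of all genes were called, and 2 members had an unadjusted p under 0.05, as did 12.4% of all genes. With array weights 1, Lgals3bp, was called, 0.43 higher with Mitsui-7.

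For the other members called in any comparison, levels in the 5 p53het NM-403 rats are given in the order of their replicate numbers. Irf7 levels were 0.99, 0.51, 1.47, 0.66 and 0.24. Zbp1 levels were -4.20, -5.07, -3.74, -4.63 and -5.09. Usp18 levels were -2.05, -1.72, -1.36, -2.22 and -2.15. Replicate 3 was the highest for each of these, and above every p53het control. Isg15 levels were 0.52, 0.13, 1.04, 0.45 and 0.31. Ifit3 levels were -2.67, -3.23, -1.80, -2.68 and -2.95. Oasl levels were -5.10, -5.69, -4.67, -5.83 and -5.50. Replicate 3 was again above every p53het control. Rsad2 levels were -0.83, -1.05, -0.75, -0.86 and -1.03. Ifit2 levels were -1.51, -2.42, -1.80, -1.91 and -2.39. Eif2ak2 levels were -2.22, -2.11, -2.12, -2.20 and -2.17. No rat was above every p53het control for these 3. Dhx58 levels were -3.08, -3.16, -2.85, -3.28 and -3.17. Cmpk2 levels were -0.52, -1.05, -0.52, -0.68 and -1.04. Oas2 levels were -5.37, -5.54, -5.74, -5.67 and -5.65. Dhx58 was above every p53het control in 1 rat, and the other two in none. Oasl2 levels were 0.02, -0.34, 0.39, -0.01 and -0.45. Gbp4 levels were -5.19, -6.03, -5.65, -6.0 and -7.18. Tap1 levels were -3.10, -2.88, -2.55, -2.91 and -3.04. For these 3, 1 rat was above every p53het control. Rtp4 levels were 0.69, 0.37, 0.55, 0.35 and -0.15. Ifi35 levels were -1.38, -0.98, -1.23, -0.78 and -0.83. Ifi35 was below every p53het control in 2 rats.

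Whether the response to Mitsui-7 differed between genotypes was tested as an interaction. Limma called 0 members and 0 of all genes, and it called 0 members under each of the other settings run. The estimate was below 0, that is smaller in p53het than in WT lungs, in 45 of 46 members, with a median of -0.43 over the members and -0.05 over all genes. At an unadjusted p under 0.05, 23 of 46 members differed, all in this direction, where 2.46% of all genes did so. The other probes of Trim25 and Mx2 gave interaction estimates of -0.20 and 1.30, against 0.01 and -0.25 for the probes used. The lowest estimates were -1.13 ± 0.42 for Zbp1, -1.05 ± 0.37 for Ifit3 and -1.04 ± 0.41 for Gbp4, each with an adjusted p of 1.00 by limma. Markers of several immune cell types lay below 0 in the same interaction, and their part in it was not tested. They were 11 of 12 macrophage and monocyte markers (median -0.28), 7 of 8 T cell markers (-0.31), 7 of 7 NK cell markers (-0.41), 7 of 8 B cell and plasma cell markers (-0.34) and 5 of 6 markers each of plasmacytoid (-0.21) and conventional dendritic cells (-0.18). Medians of the other lists were 0.13 for neutrophil, -0.03 for endothelial and 0.02 for epithelial markers. Median scaling moved the median of all genes from -0.05 to 0.06 and gave a member median of -0.32. The members rise and fall together from rat to rat, so their number does not count as independent evidence. In 1 rat, between 6 and 41 of the 46 members, or 13% to 89.1%, lay above the mean of their own group. For all genes this share ran from 40% to 65.2%. For NM-403 the interaction gave 0 members called, 0 of them at an unadjusted p under 0.05, where 1.69% of all genes were, and a median of -0.14, which was -0.07 without p53het control replicate 3 or p53het NM-403 replicate 5, -0.09 without WT NM-403 replicate 6 and -0.22 without p53het NM-403 replicate 3.

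The control groups enter this interaction too. In p53het controls against WT controls, limma called 0 members and 0 of all genes. The estimate was above 0 in 44 of 46 members, with a median of 0.17, or 0.11 without p53het control replicate 3, and 4 members were higher at an unadjusted p under 0.05, as were 1.26% of all genes. The median over the members in each rat, minus the WT control mean of each gene, ran from -0.18 to 0.11 in WT controls (median 0.02) and from -0.15 to 0.46 in p53het controls (median 0.19). With Mitsui-7 it ran from 0.27 to 0.44 in WT (median 0.34) and from 0.02 to 0.41 in p53het rats (median 0.17). With NM-403 it ran from -0.12 to 0.28 in WT (median 0.11), and the lowest and highest of 5 p53het rats were 0.00 and 0.30 (median 0.18). The WT Mitsui-7 rats lay above all WT controls, while the p53het groups overlapped each other. No WT Mitsui-7 array was on slide 1, which held arrays of every other group.

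**Figure D4:**
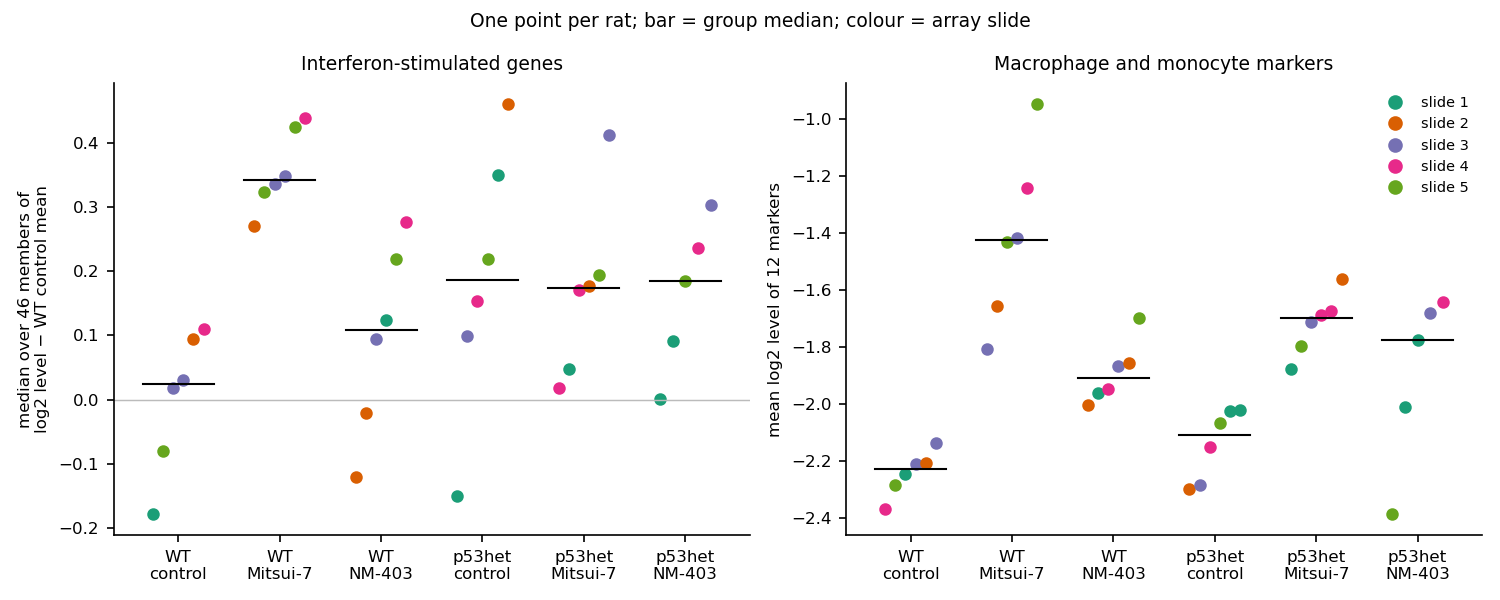
Left, the median over the 46 members of each rat's log2 level minus the WT control mean of that gene, and right, the mean log2 level of 12 macrophage and monocyte markers, with 1 point per rat, a bar at the group median and the array slide as colour. The 6 WT Mitsui-7 rats lie between 0.27 and 0.44 on the left, above all WT controls, and the p53het controls spread from -0.15 to 0.46.

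**Figure D5:**
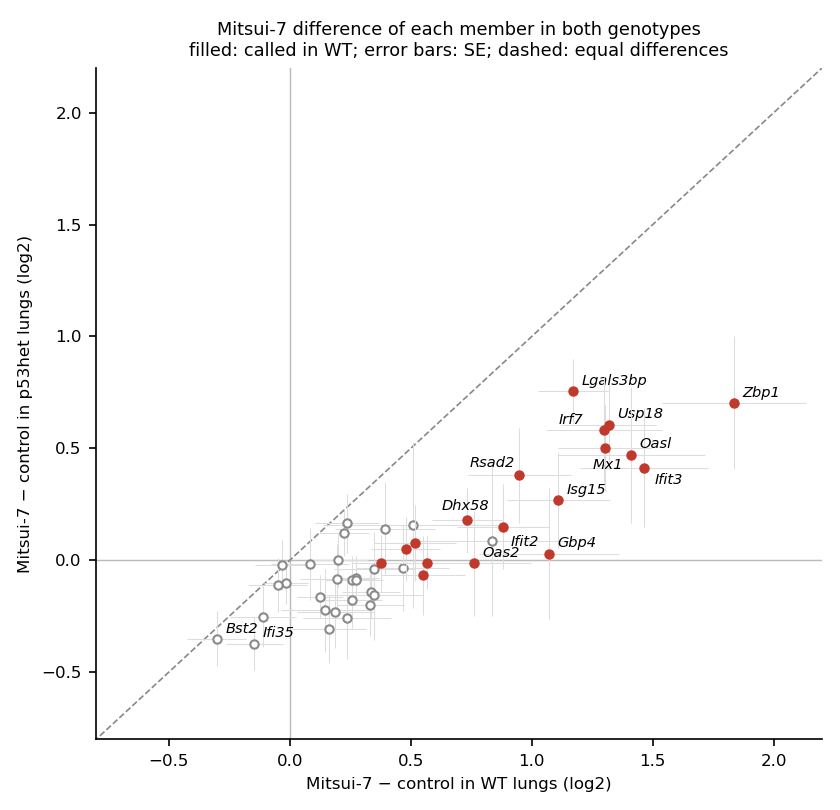
Log2 difference between Mitsui-7 and control rats in WT lungs (horizontal) against that in p53het lungs (vertical), 1 point per member, with limma's SE as bars and a dashed line of equal values. The filled points were called in WT, and so chosen on the horizontal axis, and all 18 lie below the line.

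Other genes of the pathway were taken from lists of ligands, receptors, signalling genes, inducers and further induced genes, of which 80 of 91 were tested. With Mitsui-7, 25 were higher and 1 lower in WT lungs, and 13 higher and 2 lower in p53het lungs. Of all genes tested, 8.41% were higher and 5.56% lower in WT, and 5.29% and 6.28% in p53het lungs. With NM-403, 5 pathway genes were higher in WT and 2 in p53het lungs, and 0 lower in either genotype. Of all genes, 2.30% were higher with NM-403 in WT and 1.27% in p53het lungs. Of the 11 ligands 4 were tested and limma called none. Ifnb1 was well above background on 4 and Ifng on 1 of 35 arrays. Of the signalling genes Jak2 rose by 0.34 in WT lungs with Mitsui-7. The receptor gene Ifnlr1 fell by 0.32 in WT and by 0.28 in p53het lungs with Mitsui-7.

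Of 14 genes that detect nucleic acid or induce interferon, 6 rose in WT lungs with Mitsui-7, led by Irf5 at 1.00, Irf8 at 0.88 and Cgas, the DNA sensor, at 0.88, with Unc93b1 at 0.79, Tlr7 at 0.68 and Tlr3 at 0.61. The mean log2 level of the 14 ran from -2.07 to -1.85 in WT controls and from -1.75 to -1.37 with Mitsui-7. In p53het rats it ran from -1.89 to -1.78 and from -1.77 to -1.56, with no overlap in either genotype. Of 46 further induced genes, 18 rose in WT and 8 in p53het lungs with Mitsui-7. Among all genes tested, 8.41% rose in WT and 5.29% in p53het lungs with Mitsui-7. Cxcl10, a chemokine that draws T cells, rose by 3.67 ± 0.30, or 12.8-fold, in WT lungs (adjusted p = 1.91e-10 by limma) and by 2.74, or 6.69-fold, in p53het lungs (adjusted p = 1.05e-07 by limma). Cxcl11, a related chemokine, was not well above background in controls. With Mitsui-7 it was at least about 11-fold higher in WT and at least about 7.76-fold higher in p53het lungs. The adjusted p was 1.36e-09 and 1.19e-08 by limma. The control level was taken as the dimmest signal above background on each array, or the control's own if higher. On the same basis Ido1, which breaks down tryptophan, was at least about 2.5-fold and at least about 1.64-fold higher. It was above background on 5 and 3 of 6 Mitsui-7 arrays. Slfn4, Cxcl9 and Epsti1 rose by 1.58, 1.30 and 1.11 in WT lungs. Cxcl9 rose by 1.03 in p53het lungs. The Cxcl10 interaction estimate was -0.93 ± 0.43, with an adjusted p of 1.00 by limma. With NM-403, Cxcl10 had differences of 0.80 in WT and 0.85 in p53het lungs, neither called.

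Markers of cell types moved as well, and their part in the members' differences was not tested. Among all genes, 8.41% rose and 5.56% fell with Mitsui-7 in WT lungs, and 5.29% and 6.28% in p53het lungs. With NM-403 in WT lungs, 2.30% of all genes rose. Of 12 macrophage and monocyte markers, 7 rose with Mitsui-7 in WT lungs, with a median difference of 0.83, and 4 in p53het lungs, with a median of 0.12. Their summed level ran from 6.39 to 6.59 (log2) in WT controls and from 6.44 to 6.87 with Mitsui-7, and from 6.38 to 7.22 and from 6.65 to 7.02 in p53het rats. Their mean log2 level ran from -2.37 to -2.14 in WT controls and from -1.81 to -0.95 with Mitsui-7, and from -2.30 to -2.02 and from -1.88 to -1.56 in p53het rats, with no overlap in either genotype. Siglec1, itself interferon-induced, and Itgam were among the 7. Of 6 plasmacytoid dendritic cell markers tested, Siglech rose in WT lungs with Mitsui-7. The summed level of the 7 on the array ran from 1.57 to 1.96 in WT controls and from 1.32 to 1.66 with Mitsui-7. In p53het rats it ran from 1.58 to 2.17 and from 1.10 to 1.67, with overlap in both genotypes. Of 8 endothelial markers, 5 fell with Mitsui-7 in either genotype. In WT rats their summed level ran from 5.25 to 5.50 in controls and from 4.37 to 4.95 with Mitsui-7, and in p53het rats from 5.30 to 5.53 and from 4.49 to 5.04. Of 7 neutrophil markers tested, 4 were higher with NM-403 in WT lungs, and Elane was never above background. The summed level of the 8 on the array ran from 3.15 to 4.56 with NM-403 in WT rats against 1.47 to 2.97 in controls. In p53het rats it ran from 3.20 to 4.27 with NM-403 against 1.84 to 2.81 in controls. The mean log2 level of 8 B cell and plasma cell markers ran from -2.44 to -2.19 in WT controls, from -2.05 to -1.65 with Mitsui-7 and from -2.04 to -1.59 with NM-403, so that both nanotube groups lay above all WT controls. With Mitsui-7, 3 of these 8 rose in WT lungs, and 3 rose and 1 fell in p53het lungs. Of 8 T cell markers, 1 rose in WT lungs with Mitsui-7, and 1 rose and 1 fell in p53het lungs. The mean level of 7 NK cell markers ran from -3.22 to -2.82 in WT controls and from -3.39 to -2.61 with Mitsui-7, and from -3.30 to -2.68 and from -3.82 to -2.79 in p53het rats, overlapping in both genotypes. Of these 7, 1 rose in WT and 1 fell in p53het lungs with Mitsui-7. The T cell and NK cell counts are near the shares of all genes. Of 6 conventional dendritic cell markers, 3 rose in WT lungs with Mitsui-7, and of 8 lung epithelium markers 2 fell.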

How the data were processed

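The deposited arrays are scanner output. The submitters' processing notes name Agilent Feature Extraction, version 12.0.1.1. Their intensity (processed signal) is background-subtracted by that software, per the file headers. A matrix of log2 values that the authors deposited, centred on each probe's median, holds 11555 probes, with a normalization not given in the sources used here. Within an array its values correlated with the scanner's at r of 0.995 to 0.999 across probes.

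From the intensities, log2 was taken and each array's 75th percentile subtracted, and spots of a probe were averaged. Of several probes the brightest on average stood for the gene. A gene was kept if 5 or more arrays had it well above background and each group had 3 or more measured values. A group-means model over 35 arrays was fitted with limma 3.58.1 in R 4.3.3, with the data.table package (version 1.17.8). It gave 9 comparisons, each adjusted by Benjamini-Hochberg over 24473 genes. Each array is 1 rat, so p-values measure the spread between rats. The steps were tested on simulated data: for WT Mitsui-7 against control, with 24324 genes, 46% of genes changed 1.5-fold were recovered, 76% at 2-fold, 92% at 4-fold and 98% at 8-fold. The number of arrays limits the precision.

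Members, pathway lists and marker lists were chosen with earlier results of these data known. Every member is named by its role. Of other genes, pathway genes and markers on which a result turns are named, and some are not reported here. RefSeq promoters of GRCr8 were matched by symbol. Alternatives were other scalings, filters, probe rules, the authors' values, array weights, slide and replicate-number blocks and leaving out each array. Leaving out the 2 arrays with an unusual share of bright spots was chosen after seeing the data.

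Replicate numbers are shared between groups. Deviations from the group means of same-numbered arrays correlated at -0.57 to 0.69 (mean 0.03, 85 pairs), so the numbers were not taken to pair the rats. For arrays of different groups the mean correlation was 0.24 where they shared a slide (99 pairs) and -0.06 where they did not (411 pairs).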

Additional observations from a re-analysis of the deposited data

Results flagged for a closer look

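In 14 of 276 combinations of a member and a group of 5 or 6 rats, 1 rat stood apart from the rest by Dixon's criterion, and chance gives about 1 in 20 groups. WT control replicate 3 was lowest for Ifit3, at a log2 level of -4.23, and for Herc6, at -0.65. Among WT Mitsui-7 rats, replicate 2 was lowest for Herc6 at -0.69, replicate 4 was highest for Lgals3bp at 3.07, and replicate 5 was highest for Dtx3l at -1.06 and for Ifi44l at -2.96. Replicate 5 is also the array with the highest share of spots above background. WT NM-403 replicate 5 was lowest for Parp14 at 0.90. Among p53het controls, replicate 1 was highest for Stat2 at 1.68, and replicate 6 was lowest for Dhx58 at -3.94 and Psmb8 at 1.71 and highest for Mx2 at 5.12. Replicate 2 of p53het Mitsui-7 was highest for Bst2 at 3.29 and Parp14 at 1.49, and replicate 1 of p53het NM-403 was highest for Psmb8 at 2.57.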

How the results depend on the processing

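For each comparison 12 other settings were run besides leaving out each array. No called member changed direction. Member medians near 0 did change sign, running from -0.10 to 0.03 for p53het Mitsui-7 against control, from -0.07 to 0.02 for p53het NM-403 against control and from -0.04 to 0.09 between the nanotubes in p53het rats. In WT Mitsui-7 against WT control, 18 members were called as reported and 11 to 26 under the other settings; the 11 came from the authors' deposited values, which measure 35 members. In WT NM-403 against WT control the 1 call became 0 with no filter on dim probes, 0 without the 2 arrays whose share of spots above background stands apart, and 2 with the slide as a fixed or a random block, the second being Ifit3. In p53het Mitsui-7 against p53het control the 3 calls became 1 with no filter, 6 with the slide as a fixed block and 5 as a random block. Array weights gave 1 call in p53het NM-403 against p53het control and 1 in p53het Mitsui-7 against p53het NM-403, where 0 were reported. The cause was not tested. Direct comparison of the nanotubes in WT gave 6 to 12 calls against 8. Both interactions and the control comparison gave 0 under all 12.

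Leaving out 1 array at a time gave 13 to 20 calls for WT Mitsui-7, 0 to 1 for WT NM-403, 1 to 5 for p53het Mitsui-7, 6 to 12 between the nanotubes in WT, and 0 elsewhere. The median over the members ran from 0.23 to 0.38 for WT Mitsui-7 against control and from -0.51 to -0.32 for the Mitsui-7 interaction over 47 settings, from 0.03 to 0.12 for WT NM-403, from 0.11 to 0.23 between the controls and from -0.22 to -0.05 for the NM-403 interaction. In WT Mitsui-7, Tap1 was lost in 14 settings, Oasl2 in 11, Rtp4 in 9, Oas2 in 8, Cmpk2 in 4 and Gbp4 in 3. The other 12 calls were kept in every setting that tested the gene. Zbp1, Ifit3, Oasl, Dhx58, Gbp4, Oas2 and Tap1 were tested in 46 of the 47 settings.

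With the replicate number as a block, 18 members were called in WT Mitsui-7, 0 in WT NM-403, 2 in p53het Mitsui-7 and 8 between the nanotubes in WT. The low signal of Oas3, Gbp4 and Oasl limits those members.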
